A study of Mus musculus with 24 samples.

Results

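MicroRNA abundance in the soleus of MCK-PPARa mice was set directly against that in the soleus of MCK-PPARb mice, 3 animals against 3. These 6 animals gave 12 of the 24 deposited samples, because the RNA of each animal was run on 2 cards of TaqMan assays, and the cards were joined per animal. All 584 microRNA assays of both cards were used, 375 on card A and 209 on card B, of which 517 carried mouse and 67 rat names. Per the labels, MCK-PPARa mice overexpress PPARα and MCK-PPARb mice PPARβ in muscle, and NTGa and NTGb are the wild-type littermates of each line, also 3 animals each. All 12 mice were males aged 12 weeks. MCK stands for the muscle creatine kinase promoter, which is active in striated muscle. Not given in the sources used here are the strain and the number of founder lines, and the cards did not measure the transgenes. The transgenic groups differ in receptor and in line at once, and from these 6 animals the receptor and the line cannot be told apart. The value of NTGa minus NTGb ("controls" in brackets) is therefore given with the differences described. The labels call the animals biological replicates, so p-values set a difference of means against the spread between such animals. That spread was estimated from all 4 groups together and does not cover a spread between lines.

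PPARα and PPARβ, fatty acid-sensing nuclear receptors, activate the genes with which muscle takes up and oxidises fat. The soleus is a postural muscle with many slow-twitch fibres, which rely on oxidative metabolism. MicroRNAs are short RNAs that lower the output of messenger RNAs, which they recognise mainly through a seed near their 5′ end. Several microRNAs of striated muscle lie in introns of myosin heavy chain genes and are made together with their host: miR-208 in Myh6, miR-208b in the slow myosin gene Myh7 and miR-499 in Myh7b. miR-208b and miR-499 are known for supporting the slow-fibre programme.

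The data were cycle thresholds (Ct), the PCR cycle at which a well turns positive, so that a lower Ct means more microRNA and 1 cycle is about 1 unit of log2. Detection meant a Ct under 35. Relative abundance, on the log2 scale, was a reference Ct minus the Ct of the microRNA, where the reference was the card's mean over microRNAs that every one of the 12 animals had. Values not detected, or lower, were set to a floor of -6.56 on card A and -5.66 on card B. Differences were tested with limma for the 268 microRNAs that some group had in each of its 3 animals, and a microRNA was called at a Benjamini-Hochberg adjusted p under 0.05 over those 268.

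Of 268 tested microRNAs, 8 (2.99%) were called between MCK-PPARa and MCK-PPARb soleus. miR-499, miR-208b, miR-202-3p, miR-190b and miR-547 were lower in MCK-PPARa, 5 of 268 (1.87%), and miR-215, miR-34a and miR-192 were higher, 3 of 268 (1.12%). An unadjusted p under 0.05 was reached by 37 microRNAs (13.8%), 19 higher (7.09%) and 18 lower (6.72%), and the animals of the groups did not overlap for 66 (24.6%). Between the control groups NTGa and NTGb, which differ in no transgene, 5 microRNAs (1.87%) were called, 42 (15.7%) had an unadjusted p under 0.05 and 52 (19.4%) did not overlap. For 3 of the 8 called microRNAs, miR-499, miR-215 and miR-190b, the transgenic difference less the control difference also passed (3 of 268, 1.12%). Of these, miR-215 entered the test through MCK-PPARa alone, the group where it was high.

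The sequences of the called microRNAs and of their closest relatives show which of them can recognise the same sites. They are the mature forms in RefSeq (build GRCm38.p6), 5′ to 3′, with the seed (bases 2 to 8) in capitals. Assay names without an arm were matched to the arm usually meant by that name.
miR-499: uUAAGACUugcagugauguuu
miR-208b: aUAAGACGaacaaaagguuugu
miR-208: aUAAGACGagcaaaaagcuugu
miR-190b: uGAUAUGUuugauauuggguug
miR-190: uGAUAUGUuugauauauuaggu
miR-215: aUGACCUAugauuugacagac
miR-192: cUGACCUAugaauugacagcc
miR-194: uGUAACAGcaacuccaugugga
miR-34a: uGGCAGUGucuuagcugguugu
miR-547: cUUGGUACaucuuugagugag
miR-202-3p: aGAGGUAUagcgcaugggaaga

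The 8 called microRNAs carried 7 different seeds, since miR-215 and miR-192 share theirs. miR-215 and miR-192 are identical at 18 of 21 positions and both were higher in MCK-PPARa. miR-499 and miR-208b, both lower in MCK-PPARa, share the 6 bases uaagac from position 2 and differ in the last base of the seed. miR-208 and miR-208b have the same seed and are identical at 19 of 22 positions. miR-190 and miR-190b share their first 15 bases.

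The largest called difference was in miR-499 (chr2:155622893-155622913, plus strand, within Myh7b). The Ct of miR-499 was 32.05, 32.22 and 31.31 in the 3 MCK-PPARa animals and 27.7, 27.6 and 27.8 in the 3 MCK-PPARb animals. It was 27.9, 28.0 and 28.1 in NTGa and 27.5, 27.7 and 27.8 in NTGb. The MCK-PPARa animals alone were low, and the 3 other groups lay within 1 cycle of each other. Relative abundance was -3.89 ± 0.43 (SD, n = 3) in MCK-PPARa and 0.37 ± 0.01 in MCK-PPARb, a difference of -4.26 on the log2 scale (SE 0.30, limma adjusted p = 8.44e-06) or 19.2-fold. NTGa minus NTGb was -0.69, and the difference less the control difference was -3.58 (SE 0.43, limma adjusted p = 0.00141).

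miR-208b (chr14:54975710-54975731, minus strand, within Myh7) was absent or nearly so in MCK-PPARa. No Ct was recorded for miR-208b in MCK-PPARa replicates 1 and 3 and the Ct was 39.2 in replicate 2, whereas the MCK-PPARb animals had 29.8, 30.7 and 31.1. NTGa had 32.9, 31.8 and 34.4, and NTGb 32.3, 32.3 and 31.1, so the transgenic groups lay on either side of both control groups in mean relative abundance. All 3 MCK-PPARa values were at the floor, so miR-208b was at least 17.4-fold lower in MCK-PPARa than in MCK-PPARb (log2 -4.12, SE 0.62, limma adjusted p = 0.00278). The floor gives that group an SD of 0, and the p may be too small. NTGa minus NTGb was -1.49 in the same direction, and the difference less the control difference, -2.63 (SE 0.87, limma adjusted p = 0.236), did not pass. With a detection limit of Ct 32 the difference of miR-208b was no longer called (limma adjusted p = 0.0869).

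miR-208 (chr14:54949072-54949093, minus strand, within Myh6), the cardiac member of the group, was not tested because no group had it in all 3 animals. It had no Ct in any MCK-PPARa or NTGa animal. Among MCK-PPARb animals its Ct was 32.2 and 32.1 with none in replicate 3, and in NTGb it was 36.2, 37.3 and 34.5. All 3 myosin-gene microRNAs on the cards were thus recorded later or in fewer animals in MCK-PPARa than in MCK-PPARb. The 2 that could be tested were both called lower. For miR-208 the controls split the same way, with a Ct in no NTGa animal and in each NTGb animal.

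**Figure D1:**
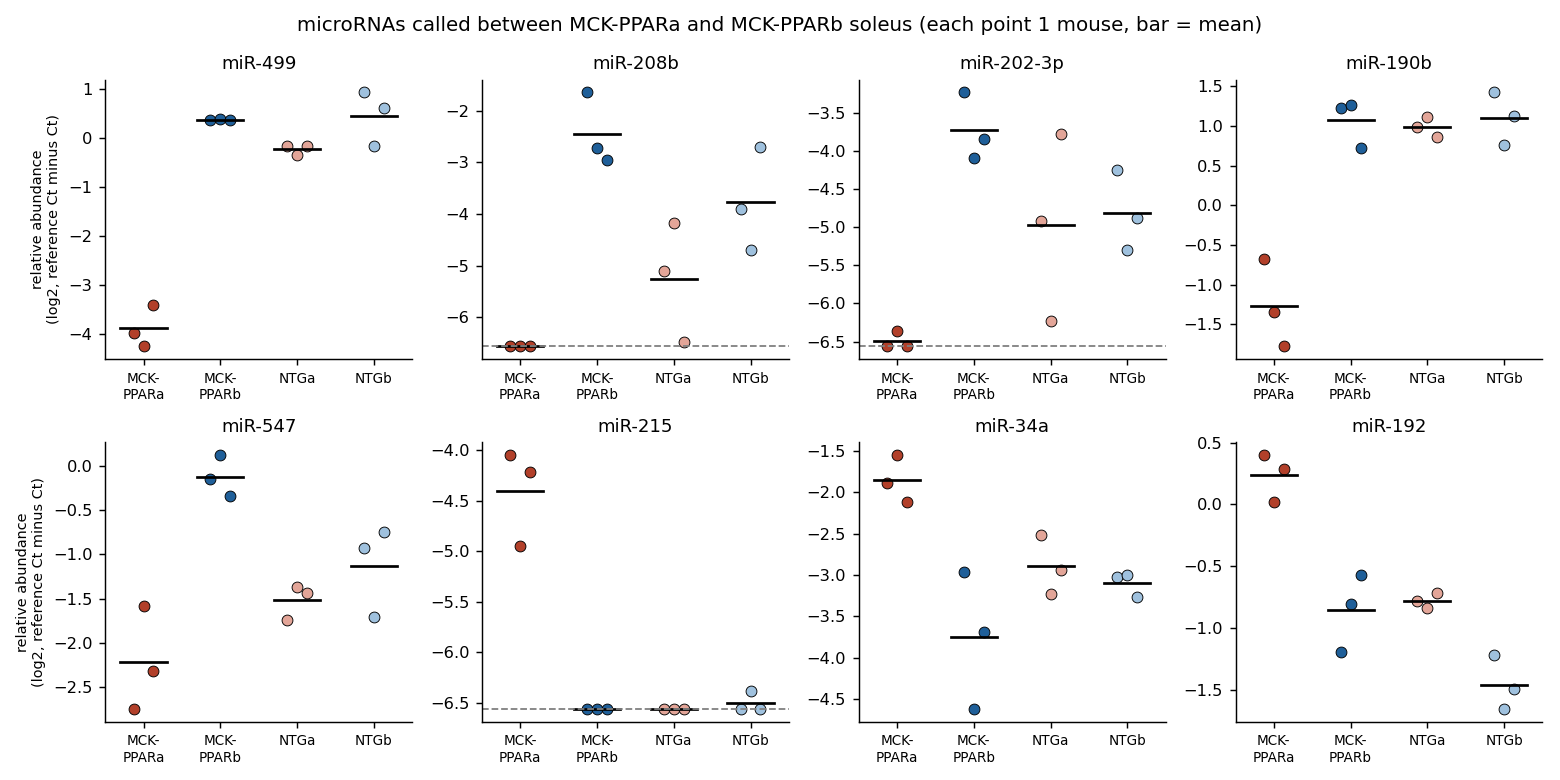
Relative abundance (log2, reference Ct minus Ct) of the 8 called microRNAs in each of the 12 mice, by group; bars are group means and the dashed line is the floor for values not detected. miR-499 and miR-190b are low in MCK-PPARa only, miR-215 leaves the floor in each MCK-PPARa animal and in 1 NTGb animal, and miR-192 also differs between the control groups.

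The general muscle microRNAs differed little. miR-1, which promotes muscle differentiation, had a Ct of 20.8, 21.0 and 20.8 in MCK-PPARa and 21.1, 20.7 and 21.0 in MCK-PPARb. Its difference was -0.08 on the log2 scale (95% interval -0.58 to 0.42, NTGa minus NTGb 0.28). miR-133a, its partner in a shared transcript, differed by -0.04 (-0.68 to 0.60, controls -0.18) and miR-133b by -0.14 (-0.70 to 0.41, controls -0.14). These intervals exclude differences of 2-fold in either direction between MCK-PPARa and MCK-PPARb. The signs for miR-1 and miR-133a turned without scaling (0.035 and 0.074), and that for miR-133a also with U6 snRNA as reference (0.00935).

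miR-206, which is most abundant in slow and regenerating muscle, had a Ct of 18.2, 18.5 and 18.3 in MCK-PPARa and 18.2, 18.0 and 18.2 in MCK-PPARb. Its relative abundance differed by -0.41 (95% interval -0.93 to 0.12, limma adjusted p = 0.447), less than the -0.67 between the controls, and by 0.025 with the endogenous controls as reference. miR-486, which lies in an intron of Ank1, gave Ct values of 23.3, 23.2 and 23.3 in MCK-PPARa and 24.5, 24.4 and 24.1 in MCK-PPARb. NTGa had 23.8, 23.7 and 23.8, and NTGb 24.0, 24.0 and 24.3. The transgenic groups did not overlap, as held for 24.6% of all 268, and differed by 0.94 (SE 0.23), with -0.02 between the controls. However, miR-486 did not pass (limma adjusted p = 0.0583). It was called in 6 of 15 other settings of the analysis, and without NTGb replicate 2 (adjusted p = 0.0113). Of 7 tested muscle-enriched microRNAs, 2 were called lower, where 1.87% of all 268 were, and none was called higher. Their median difference was -0.14, beside -0.18 between the controls and 0.03 over all 268.

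**Figure D2:**
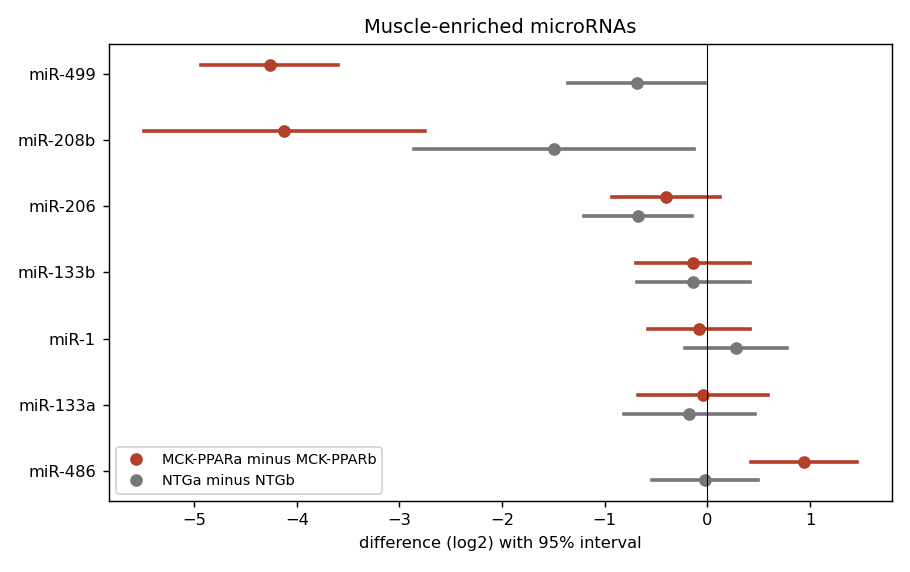
Differences on the log2 scale with 95% intervals for the 7 muscle-enriched microRNAs, MCK-PPARa minus MCK-PPARb in red and NTGa minus NTGb in grey. miR-499 and miR-208b lie near -4 in the transgenic comparison, miR-486 near 1, and the intervals of the other 4 include 0.

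miR-190b (chr3:90070030-90070051, plus strand), a relative of miR-190 with the same seed, was the called microRNA of card B. The Ct of miR-190b was 28.8, 30.2 and 30.4 in MCK-PPARa against 27.6, 27.3 and 28.3 in MCK-PPARb. NTGa (27.7, 27.8 and 27.7) and NTGb (27.7, 27.9 and 28.2) were close to MCK-PPARb, and only MCK-PPARa stood apart. The difference was -2.33 (SE 0.30, limma adjusted p = 0.00106) or 5.05-fold, with -0.11 between the controls. The difference less the control difference was -2.22 (SE 0.43, limma adjusted p = 0.0313). That call was lost without MCK-PPARa replicate 2 or 3, MCK-PPARb replicate 1 or 2, any NTGa animal or NTGb replicate 3 (values of -2.29 to -1.96, adjusted p of 0.0567 to 0.117). It was also lost with the median or the endogenous controls as reference, with no scaling and with no filter (adjusted p up to 0.196).

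A rat assay named miR-190b on card A gave Ct values of 31.99, 31.47 and 32.73 in MCK-PPARa and 32.6, 30.1 and 30.2 in MCK-PPARb. The groups overlapped, and the difference was -1.22 (SE 0.58, limma adjusted p = 0.372), with 0.87 in the opposite direction between the controls. miR-190 itself (chr9:67236700-67236721, minus strand, within Tln2) differed by -0.37 (limma adjusted p = 0.786, controls 0.90), from Ct values of 32.1, 31.4 and 31.3 against 31.5, 31.3 and 31.2.

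miR-192, miR-194 and miR-215 are made from a pair of gene clusters and are typical of gut, liver and kidney epithelium. Mir215 lies beside Mir194-1 within Iars2 on chromosome 1, and Mir192 beside Mir194-2 on chromosome 19. miR-215 (chr1:185313610-185313630, plus strand) was detected in all 3 MCK-PPARa animals, at a Ct of 32.1, 32.9 and 32.1. In MCK-PPARb it had a Ct of 34.7, none and 35.3, in NTGa none in any animal, and in NTGb 33.9 in replicate 2 only. Relative abundance was -4.41 ± 0.48 (SD, n = 3) in MCK-PPARa, whereas all MCK-PPARb animals were at the floor, so miR-215 was at least 4.46-fold higher in MCK-PPARa (log2 2.16, SE 0.24, limma adjusted p = 3.29e-04). The control difference was -0.06, and the difference less the control difference was 2.22 (SE 0.34, limma adjusted p = 0.00612). miR-215 was tested only because MCK-PPARa, the group where it was high, had it in all 3 animals. Both p-values rest on groups at the floor and may be too small. The call was lost with no detection limit or with undetected values left missing (adjusted p up to 0.319).

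miR-192 (chr19:6264857-6264877, plus strand) had a Ct of 27.7, 27.9 and 27.6 in MCK-PPARa and 29.3, 28.8 and 28.7 in MCK-PPARb. It was 2.13-fold higher in MCK-PPARa (log2 1.09, SE 0.22, limma adjusted p = 0.0183). NTGa (28.5, 28.5 and 28.6) was also above NTGb (29.6, 29.2 and 29.9), by 0.68, and the difference less the control difference was 0.41 (SE 0.32, limma adjusted p = 0.70). The call was lost without MCK-PPARa replicate 1 or 3 or MCK-PPARb replicate 1 or 2, with only the 6 transgenic animals in the fit, and with the endogenous controls as reference (adjusted p up to 0.108). miR-194, which both clusters encode, had a Ct of 28.8, 28.5 and 28.8 in MCK-PPARa and 29.1, 29.0 and 29.7 in MCK-PPARb. The groups did not overlap, as held for 24.6% of all 268. The difference of 0.51 (SE 0.23, controls -0.28) did not pass (limma adjusted p = 0.367). Of the 3 microRNAs, 2 were called higher, where 1.12% of all 268 were, and none lower, and their median was 1.09, beside -0.06 between the controls.

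miR-34a (chr4:150068473-150068494, plus strand), a p53-induced microRNA that acts on Sirt1, was 3.74-fold higher in MCK-PPARa. The Ct of miR-34a was 29.9, 29.5 and 30.0 in MCK-PPARa and 31.1, 32.6 and 31.8 in MCK-PPARb, while NTGa had 30.3, 30.9 and 30.9 and NTGb 31.4, 30.6 and 31.7. The control groups lay between the transgenic groups in mean relative abundance. The difference was 1.90 (SE 0.38, limma adjusted p = 0.0159) with 0.21 between the controls, and the difference less the control difference was 1.70 (SE 0.53, limma adjusted p = 0.205). The call of miR-34a was lost without MCK-PPARa replicate 2, with only the 6 transgenic animals in the fit, and with no filter on detection (adjusted p up to 0.154). Its relatives miR-34c* and miR-34b-3p differed by 1.40 (controls 1.01) and 0.97 (controls -0.68) and did not pass (limma adjusted p = 0.434 and 0.645). The difference of miR-34c* was 0.32 without MCK-PPARa replicate 1, and that of miR-34b-3p was 0.054 without MCK-PPARb replicate 3. MCK-PPARa replicate 1 had miR-34c* at a Ct of 27.0 while the other animals of that group had 31.2 and 30.5, within reach of the 31.9, 30.6 and 31.1 of MCK-PPARb.

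miR-202-3p (chr7:139957695-139957716, minus strand), known from the gonads, was lower in MCK-PPARa. Its Ct values were 36.9, 34.3 and 35.9 in MCK-PPARa and 31.35, 32.12 and 31.98 in MCK-PPARb. NTGa had 32.7, 33.9 and 31.7, and NTGb 32.6, 32.9 and 33.3. MCK-PPARa had the lowest mean of the 4 groups, and NTGa replicate 2 was also close to the floor. The fitted difference was -2.77 (SE 0.53, limma adjusted p = 0.0136) or 6.81-fold, with 2 of 3 MCK-PPARa animals at the floor, and the control difference was -0.17. The difference less the control difference was -2.60 (SE 0.75, limma adjusted p = 0.158). The call was lost with undetected values missing, with no filter, and without MCK-PPARb replicate 1 (adjusted p up to 0.207).

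miR-547 (chrX:67988383-67988403, minus strand) was 4.26-fold lower in MCK-PPARa. The Ct of miR-547 was 30.8, 29.5 and 30.2 in MCK-PPARa and 28.3, 27.9 and 28.5 in MCK-PPARb, with 29.5, 29.0 and 29.4 in NTGa and 29.3, 29.3 and 29.2 in NTGb. The controls lay between the transgenic groups in mean relative abundance, though not in every animal. The difference was -2.09 (SE 0.34, limma adjusted p = 0.00422), with -0.39 between the controls and -1.70 for the difference less the control difference (SE 0.48, limma adjusted p = 0.156). The calls of miR-499, miR-190b and miR-547 between MCK-PPARa and MCK-PPARb held in all 27 other settings tried, 12 of which left out 1 animal.

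Beside miR-486, the microRNAs closest to the threshold without passing were miR-29b, miR-31 and miR-193b, and for miR-31 and miR-193b the controls differed in the same way. miR-31, known in satellite cells for holding back Myf5, had a Ct of 31.996, 32.946 and 35.675 in MCK-PPARa and 30.1, 30.9 and 30.8 in MCK-PPARb. NTGa had 33.4, 32.6 and 32.2, and NTGb 31.8, 29.2 and 32.1. Its difference was -2.68 (SE 0.69, limma adjusted p = 0.0642) beside -2.06 between the controls. The control difference rests in part on NTGb replicate 2, at 29.2, and was not computed without this animal. Without MCK-PPARa replicate 1 the difference of miR-31 was -3.29 and passed (limma adjusted p = 0.0293), as it did without NTGb replicate 2 (adjusted p = 0.0411).

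miR-193b, known from brown fat, gave Ct values of 24.93, 24.97 and 24.81 in MCK-PPARa and 23.41, 23.85 and 23.96 in MCK-PPARb. The control values were 24.8, 24.6 and 24.9 in NTGa and 24.0, 24.2 and 23.7 in NTGb. Each group of the a line was low and each group of the b line high. The transgenic difference was -1.28 (SE 0.33, limma adjusted p = 0.0642), the control difference -1.14 and the difference between them -0.13. miR-222, a regulator of the cell cycle, differed by -0.66 (SE 0.19, limma adjusted p = 0.104) in transgenic animals and by -0.81 in controls (adjusted p = 0.0532). Its Ct was 25.5, 25.4 and 25.4 in MCK-PPARa against 24.7, 24.9 and 24.9 in MCK-PPARb.

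miR-29b, which acts on collagen transcripts, was on the other side. The Ct of miR-29b was 29.6, 29.6 and 29.9 in MCK-PPARa and 31.3, 30.4 and 31.2 in MCK-PPARb, with 29.6, 30.0 and 29.9 in NTGa and 30.7, 29.9 and 30.4 in NTGb. MCK-PPARb held the lowest mean relative abundance of the 4 groups. The difference was 1.13 (SE 0.28, controls 0.12) and did not pass (limma adjusted p = 0.0574). miR-29a and miR-29c, with the same seed, differed by 0.23 and 0.06 (controls 0.25 and 0.29). miR-29c* had Ct values of 38.896, 31.995 and 32.792 in MCK-PPARa against 30.8, 30.8 and 31.3 in MCK-PPARb, a difference of -2.15 (limma adjusted p = 0.0711, controls -0.74) that was -1.46 without MCK-PPARa replicate 1.

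Of the other microRNAs with an unadjusted p under 0.05, none passed after adjustment (limma adjusted p of 0.274 to 0.315). miR-204, encoded in an intron of Trpm3, was even within MCK-PPARa (Ct 27.1, 27.2 and 27.1) and spread in MCK-PPARb (28.2, 27.4 and 28.4). NTGa had 26.9, 27.0 and 26.8 and NTGb 27.9, 27.6 and 28.1, so both groups of the a line were again on 1 side. miR-193, a relative of miR-193b, went the other way from it, by 1.19 (controls 0.18), from Ct values of 32.6, 31.3 and 31.1 in MCK-PPARa and 33.0, 32.6 and 33.2 in MCK-PPARb. miR-652 differed by 1.14 (controls 0.41), with 29.4, 29.6 and 29.4 in MCK-PPARa and 31.5, 30.1 and 30.5 in MCK-PPARb. Neither pair of groups overlapped, as held for 24.6% of all 268.

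On card B, miR-877 and miR-186* were most abundant in MCK-PPARa replicate 1. miR-877 had a Ct of 25.6 in this animal and 29.6 and 28.9 in the others of its group, against 31.5, 29.7 and 29.7 in MCK-PPARb, and differed by 2.04 (controls 1.44). miR-186* had 30.4 in that animal and 32.4 and 32.5 in the others, and its difference of 1.43 (controls 0.21) was 0.93 without it. The passenger strands miR-99b* and miR-27b* differed by -1.38 and -1.71, with -0.65 and -0.62 between the controls.

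Over all 37 microRNAs with an unadjusted p under 0.05, the control difference had the same sign as the transgenic difference in 30, beside 59% of all 268. It was under 1/3 of the transgenic difference in size for 17, among them 6 of the 8 called ones, miR-499, miR-215, miR-190b, miR-547, miR-202-3p and miR-34a. For 8 of the 37 it had the same sign and at least 2/3 of the size. The 37 were picked for their transgenic difference, which favours a control difference that is small beside it. These counts therefore do not show that a difference is particular to the transgenic groups. The control groups themselves reached an unadjusted p under 0.05 for 8 microRNAs of the 37 (21.6%), beside 15.7% of all 268. These 8 were 19% of the 42 of the control comparison, and all had the same sign in both comparisons. In 5 of them the differences were alike in size, namely miR-31, miR-193b, miR-222, miR-138 (-0.77 and -1.17) and miR-204 (0.74 and 0.64). For miR-31 the likeness rests in part on NTGb replicate 2. miR-499, miR-208b and miR-192 were the other 3, with larger differences between the transgenic groups.

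**Figure D3:**
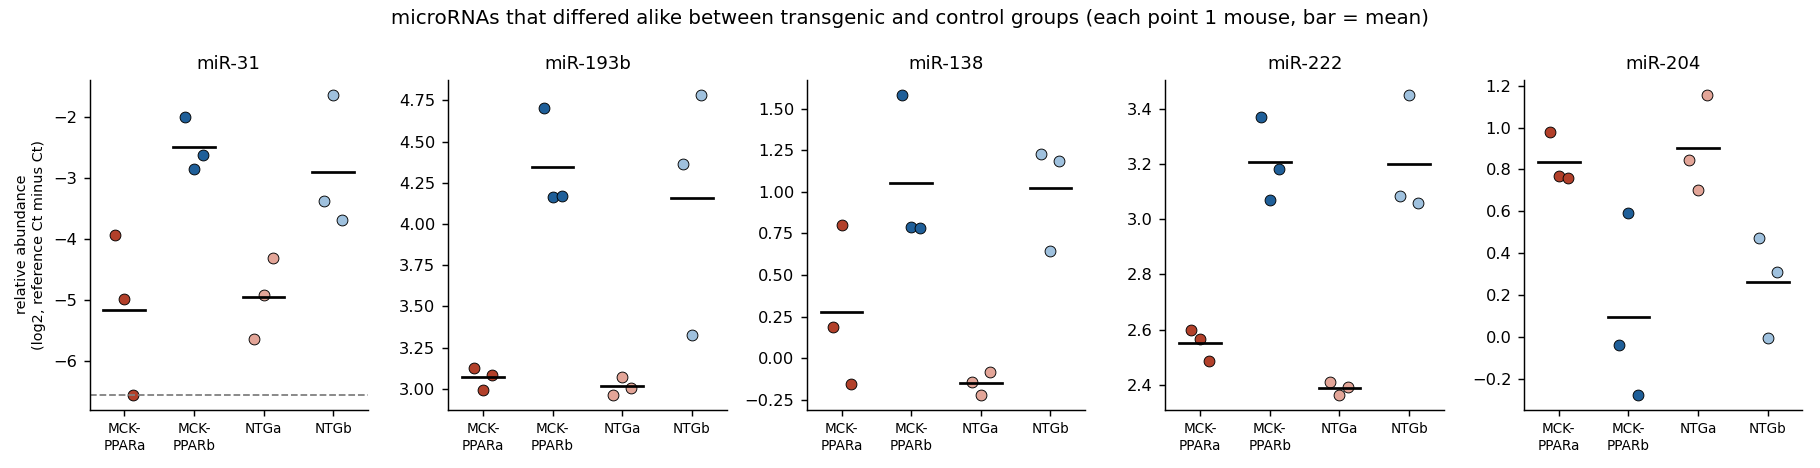
Relative abundance (log2, reference Ct minus Ct) in each of the 12 mice for the 5 microRNAs whose difference was alike in transgenic and control groups; bars are group means and the dashed line is the floor. miR-31, miR-193b, miR-138 and miR-222 have lower means in both groups of the a line, and miR-204 has higher ones.

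Across the 268 tested microRNAs, the difference between the transgenic groups and the difference between the control groups had a Pearson correlation of 0.313 and a Spearman correlation of 0.333, and 59% had the same sign. No animal enters both differences, but the points share the assays, the cards and the scaling, and microRNAs are not independent replicates. The typical size was also alike, with a median absolute difference of 0.394 between the transgenic groups and 0.413 between the controls. More than 2-fold was reached by 48 microRNAs between the transgenic groups and by 44 between the controls, with 13 in both, all in the same direction.

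**Figure D4:**
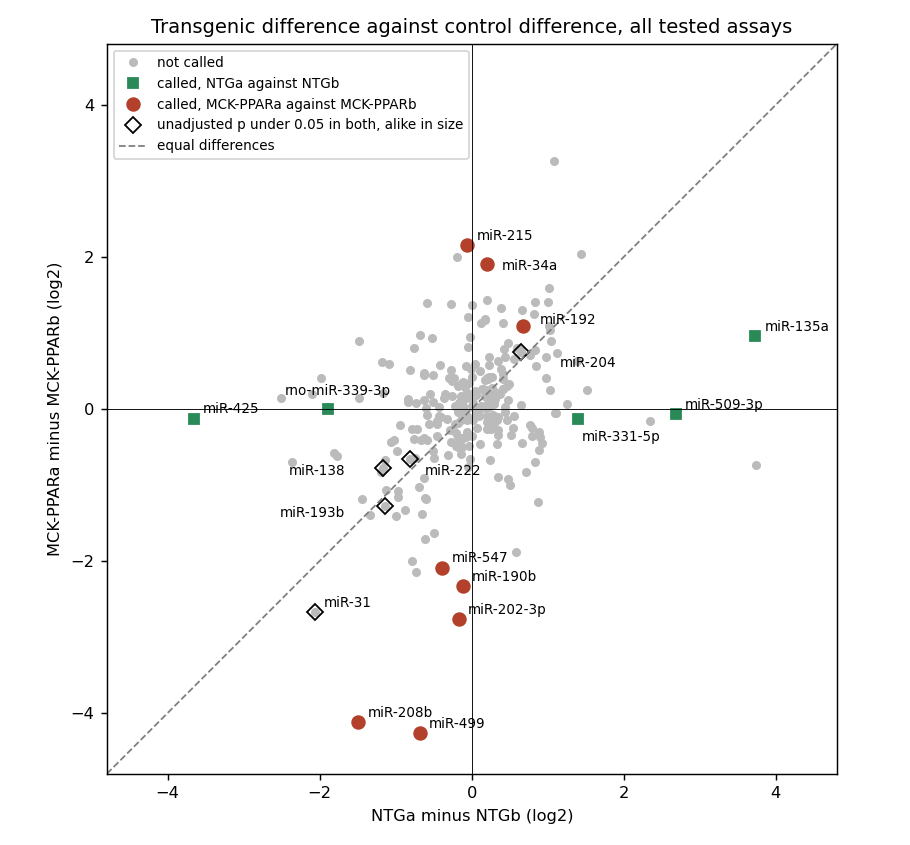
Each point is 1 of 268 tested microRNAs, with NTGa minus NTGb on the horizontal axis and MCK-PPARa minus MCK-PPARb on the vertical axis, both on the log2 scale. The called transgenic differences of miR-499, miR-208b, miR-190b, miR-547, miR-202-3p, miR-215 and miR-34a lie away from the dashed line of equal differences, and the 5 open diamonds lie near it. The difference less the control difference passed only for miR-499, miR-215 and miR-190b.

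The 5 microRNAs called between the controls, miR-331-5p, miR-509-3p, miR-135a, miR-425 and rno-miR-339-3p, were not called between the transgenic groups. For none of these 5 did the difference less the control difference pass (limma adjusted p of 0.156 to 0.244), so the comparisons are not shown to differ there. miR-509-3p had Ct values of 34.4, 33.8 and 33.8 in MCK-PPARa and 37.1, 35.6 and 32.9 in MCK-PPARb, with a difference of -0.07. The MCK-PPARb values over 35 were set to the floor, and with no detection limit this difference was 1.08. Between NTGa (32.3, 31.7 and 30.7) and NTGb (35.1, 33.8 and 36.1) the difference was 2.69 (limma adjusted p = 0.0339), also with NTGb values over 35 at the floor. rno-miR-339-3p differed by -0.01 between the transgenic groups and by -1.89 between the controls. miR-135a differed by 0.96 (limma adjusted p = 0.493) and 3.73, and its family member miR-135b, not called in either comparison, by -0.73 (adjusted p = 0.763) and 3.74 (adjusted p = 0.0845). The control calls were unsteady, and none of them remained called with a detection limit of Ct 32.

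Detection itself was mostly common to both transgenic groups. Of 584 assays, 222 were detected in all 6 transgenic animals and 234 in none of them. In all 3 MCK-PPARa animals and at most 1 MCK-PPARb animal, 4 microRNAs were detected, miR-215, miR-687, miR-509-3p and miR-16*. miR-687 had a Ct of 31.99, 34.74 and 31.31 in MCK-PPARa and 33.0, 36.2 and 36.1 in MCK-PPARb, and was not detected in any control animal, but its difference of 1.37 (SE 0.71, controls 0, all at the floor) did not pass (limma adjusted p = 0.393). The reverse held for 7 assays, miR-208b, miR-202-3p, miR-200c, miR-184, miR-31*, miR-9* and rno-miR-148b-5p. miR-687 and most names of these 2 groups were given because of their values. Of the 316 assays not tested, 220 were detected in no animal and 96 in at least 1.

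Families and clusters outside those above held no called member. All 6 tested members of the miR-15 and miR-16 family, which share a seed and act on cell cycle genes, were positive, with a median of 0.42 beside 0.18 in the controls. In the controls, 5 of the 6 were positive. miR-497 differed by 0.58 (limma adjusted p = 0.274, controls 0.23), miR-15a by 0.87 (controls 0.47) and miR-322 by 0.59 (controls 0.04). In each of these 3 the transgenic groups did not overlap, as in 24.6% of all 268. The let-7 family (4 of 9 positive, median -0.03, controls -0.06), the miR-30 family (4 of 5, 0.04, controls 0.48) and the miR-17 cluster with its paralogues (4 of 11, -0.07, controls 0.05) lay near the median of 0.03 over all 268, of which 141 were positive. The miR-29 family (3 of 3 positive, 0.23, controls 0.26), the miR-99, miR-100 and miR-125 family (2 of 3, 0.14, controls -0.07) and the miR-148 and miR-152 family (2 of 3, 0.25, controls 0.08) had positive medians. Medians were negative for the miR-23, miR-27 and miR-24 clusters (1 of 4 positive, -0.24, controls 0.06) and for the miR-181 family (1 of 2, -0.12, controls 0.17). Both miR-221 and miR-222, which are made from 1 cluster, were negative (-0.58 and -0.66), with larger differences of -1.82 and -0.81 between the controls. The imprinted Dlk1-Dio3 cluster had 12 of 20 tested members positive and a median of 0.14 (controls 0.12), and its member of lowest p, miR-380-5p, differed by 1.40 (limma adjusted p = 0.274, controls -0.59) with all 3 MCK-PPARb animals at the floor.

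Among 12 tested microRNAs associated with lipid, glucose or mitochondrial metabolism, miR-34a was the 1 called, and 9 were positive (median 0.19, controls 0). miR-143 differed by 0.40 beside 0.41 in the controls, and the hypoxia-induced miR-210 by -0.62 beside -1.77. Of 9 tested microRNAs reported in satellite cells or regenerating muscle, 5 were positive with a median of 0.13 (controls -0.74), and none was called. miR-31 and miR-222 were the 2 with an unadjusted p under 0.05. The 55 tested passenger-strand assays, marked by an asterisk, were split 27 positive to 28 negative with a median of -0.10 (controls -0.13), and none was called. An unadjusted p under 0.05 was reached by 8 of the 55, beside 13.8% of all 268.

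**Figure D5:**
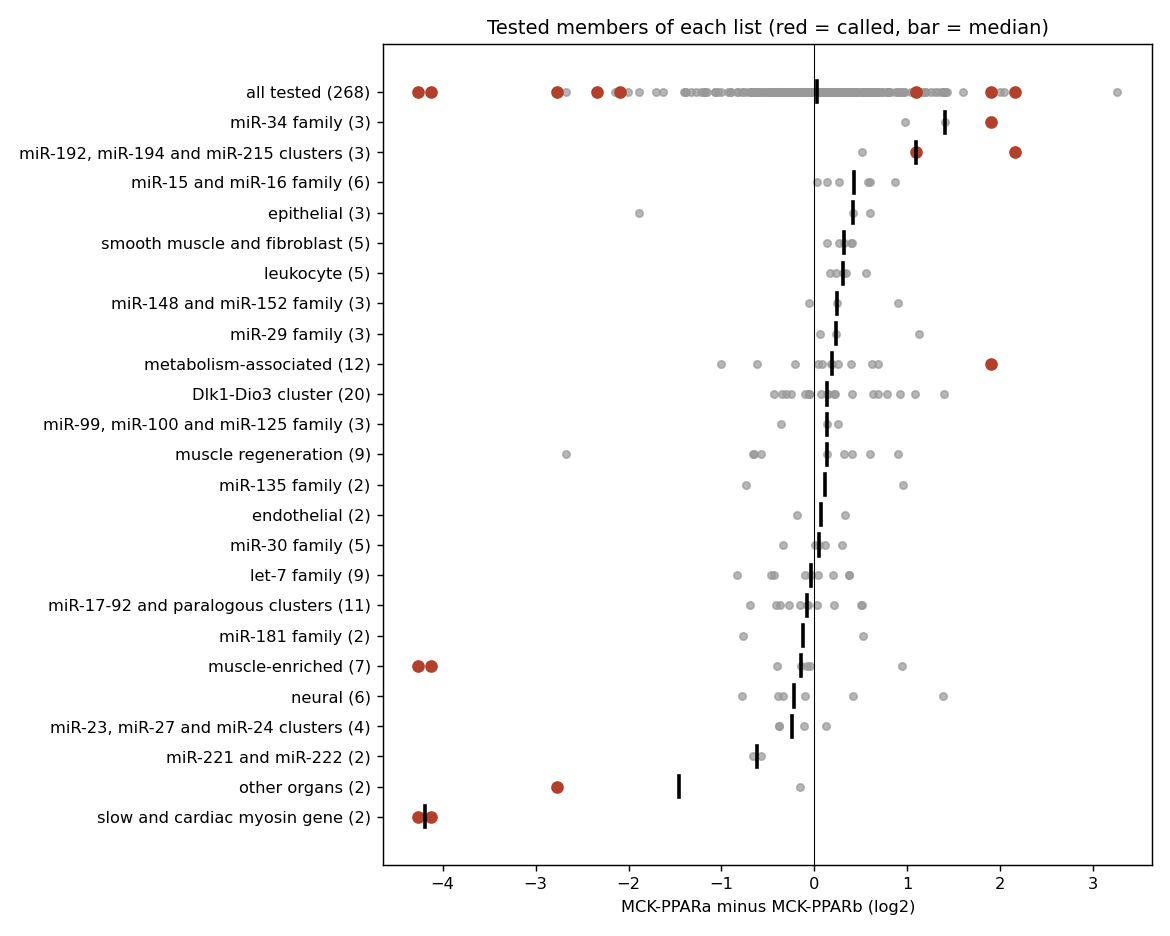
MCK-PPARa minus MCK-PPARb (log2) for the tested members of each list, with the number tested in brackets; red points are called and bars are medians. The myosin-gene list lies near -4, the miR-34 family and the miR-192, miR-194 and miR-215 clusters above 0, and most other lists have medians within 0.5 of 0.

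On the lists of markers of other cell types and organs, which leave out the epithelial miR-192 and miR-215 described above, miR-202-3p was the 1 called member. In bulk tissue, fewer cells of a type and less RNA per cell cannot be told apart. The 5 tested leukocyte microRNAs were all positive (median 0.31, controls -0.13). The summed level of the leukocyte list, as 2 to the power of relative abundance, was 32.9 to 42.3 in MCK-PPARa and 27.0 to 33.8 in MCK-PPARb. It was 32.3 to 40.2 in NTGa and 28.5 to 46.6 in NTGb. miR-146a, induced in inflammation, had a Ct of 24.84, 24.54 and 24.96 in MCK-PPARa and 25.4, 25.5 and 25.4 in MCK-PPARb, and differed by 0.56 (limma adjusted p = 0.279, controls -0.08). The 5 smooth muscle and fibroblast microRNAs were also all positive (median 0.32, controls 0.19), with a summed level of 40.1 to 48.0 against 33.6 to 38.6, and 40.6 to 41.8 in NTGa against 33.5 to 36.0 in NTGb. Their part in the other differences was not tested.

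The endothelial pair miR-126-3p and miR-126-5p differed by 0.33 (controls -0.04) and -0.19 (controls 0.29), and erythroid miR-451 by 0.46, nearly as much as the 0.41 between the controls. Epithelial microRNAs had a summed level of 0.924 to 1.07 in MCK-PPARa and 0.698 to 1.12 in MCK-PPARb. The sum was 0.852 to 2.13 in NTGa and 0.632 to 0.854 in NTGb. Of 10 on the cards, 4 were detected in some MCK-PPARa animal and 7 in some MCK-PPARb animal. miR-141, miR-183 and miR-200a were undetected in both. miR-205, miR-429 and miR-96 were undetected in MCK-PPARa but not in MCK-PPARb. Of 3 tested, 2 were positive, and miR-200c was negative at -1.89 (limma adjusted p = 0.454). Of 6 tested neural microRNAs, 2 were positive (median -0.22, controls -0.04), and their summed level was 3.16 to 4.72 in MCK-PPARa and 3.70 to 6.05 in MCK-PPARb. The list for other organs summed to at most 0.0496 in MCK-PPARa and 0.117 in MCK-PPARb, beside 0.229 in NTGa and 0.0653 in NTGb. Liver miR-122 was detected in at least 1 MCK-PPARb animal and was undetected in MCK-PPARa and in both control groups. The muscle list had summed levels of 2930 to 3060 in MCK-PPARa and 3240 to 3640 in MCK-PPARb. It had 2670 to 3030 in NTGa and 2410 to 4610 in NTGb, and the NTGb range spans both transgenic ranges. The muscle list was far above every other list, as the tissue label says.

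A mean of 278 ± 1.73 (SD, n = 3) microRNAs were detected in MCK-PPARa and 277 ± 6.56 in MCK-PPARb (two-sided exact permutation test, p = 0.9, smallest possible 0.1). Endogenous small RNA controls had a mean Ct of 24.7 in both (exact permutation test, p = 1, difference 0.0117 cycles), made up of -0.169 cycles on card A and 0.193 on card B (exact p = 0.3 and 0.4). With 3 animals a group these tests could not fall under 0.1, so they do not show that the groups were alike. The median correlation of MCK-PPARa replicate 1 with other animals was 0.933, below the 0.960 to 0.974 of the rest. On card B it had a low Ct for miR-721 (27.0 against 33.1 and 31.6 in its group), whose difference of 3.26 (limma adjusted p = 0.274, controls 1.09) was 1.68 without it. Without MCK-PPARa replicate 1, 8 microRNAs were again called, with miR-31 in and miR-192 out. NTGb replicate 2 had 296 microRNAs detected where the other NTGb animals had 261 and 248. Without NTGb replicate 2 the 8 called microRNAs remained called and 5 more passed, miR-193b, miR-222, miR-29b, miR-31 and miR-486.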

How the data were processed

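The authors deposited 1 cycle threshold per well, not normalized, for 384 wells on each of 2 cards, per the file headers; no Ct was recorded in empty wells. Per the labels' protocols, RNA was extracted with RNAzol B and amplified for 40 cycles with TaqMan chemistry. The analysis software, threshold and baseline are not given here by the labels or headers.

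Wells of an assay were averaged, an empty well beside a called one counting as Ct 40. The reference was the mean Ct of 149 microRNAs on card A and 59 on card B. A fold assumes doubling per cycle. Group means of all 12 animals were fitted with limma 3.58.1 in R 4.3.3 (8 residual degrees of freedom, two-sided). The fit was tested on simulated data drawn without a floor, so that test does not cover groups at the floor. No data column was left without a sample. The median residual SD was 0.257 below a mean Ct of 25 and 0.759 from 32 to 35.

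The comparison, its microRNAs, 25 lists and alternatives were chosen with earlier results of these data known. Named were all tested myosin-gene and muscle-enriched microRNAs, all called ones, those of lowest p up to 10 in each direction, the 5 of lowest p in the difference less the control difference, and up to 4 of lowest p per list. miR-208, miR-190, the rat miR-190b assay, miR-652, miR-877, miR-27b* and the microRNAs named for their detection were added after their values were seen.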

Additional observations from a re-analysis of the deposited data

Results flagged for a closer look

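The transgenic difference differed from the control difference, by the test of the difference less the control difference, for 3 of 268 microRNAs. The values on the log2 scale were -3.58 for miR-499 (limma adjusted p = 0.00141), 2.22 for miR-215 (adjusted p = 0.00612) and -2.22 for miR-190b (adjusted p = 0.0313). For miR-499 the call held in all 26 other settings. For miR-215, 8 of the 9 animals outside MCK-PPARa were at the floor, and it entered the test through MCK-PPARa alone. Its call was lost with the median as reference and with no detection limit. For miR-190b it was lost in 4 of 14 other settings and in 8 of 12 that left out 1 animal. Causes were not tested.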

How the results depend on the processing

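Between MCK-PPARa and MCK-PPARb, 8 microRNAs were called, and 7 to 12 in the other settings except for 5 with undetected values missing, which gives no value for miR-208b. Leaving out each animal gave 7 to 13, with 13 without NTGb replicate 2. Between NTGa and NTGb, 5 were called, but 29 with U6 as reference, 14 with animal weights, 1 with no filter and 1 with only those groups in the fit. There were 0 by limma with a limit of Ct 32, with no limit, with undetected values missing or with detection in all 12 animals. When each animal was left out there were 0 to 7. The 42 at an unadjusted p under 0.05 given above are from the main setting, not from these. The difference less the control difference gave 3, but 1 with the median reference, 7 with U6 and 2 to 6 when each animal was left out (6 without NTGb replicate 2). With U6 or no scaling the median of all transgenic differences was 0.137 or 0.155.

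With the replicate number as a block, 8 were called between MCK-PPARa and MCK-PPARb, the same 8, and 3 for the difference less the control difference. Same-numbered transgenic animals had deviations correlated at -0.11, -0.023 and -0.064. Whether same-numbered animals share more than a label cannot be told from so few values, and none is given for the controls.

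Signs turned only for differences that were not called. Values were 0.00257 (median), 0.044 (U6), 0.11 (no scaling) and 0.089 (Ct 32) for rno-miR-339-3p. For miR-509-3p they were 0.11 (U6), 0.29 (no scaling), 1.08 (no limit) and 0.048 (weights). The endogenous reference gave 0.025 for miR-206 and -0.00859 for miR-30e. miR-133a gave 0.00935 (U6) and 0.074 (no scaling). No scaling gave 0.035 for miR-1, 0.00788 for miR-23b and 0.058 for miR-152. miR-741 gave 0.32 (no limit) and miR-182 -0.25 (missing values), and weights gave -0.062 for miR-30e and -0.0495 for miR-29c. The difference less the control difference of miR-192 was -0.089 with U6. The mean Ct of the endogenous controls differed by -0.169 on card A alone.

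Leaving out each animal, the sign turned for miR-509-3p (-0.38 to 0.52), miR-30e (-0.23 to 0.27), miR-29c (-0.080 to 0.19), miR-741 (-0.76 to 0.34) and rno-miR-339-3p (-0.31 to 0.37). It also turned for miR-133a (-0.10 to 0.014), miR-125a-5p (-0.71 to 0.031), miR-126-5p (-0.75 to 0.17), miR-23b (-0.21 to 0.030) and miR-195 (-0.095 to 0.31). The others were miR-148a (-0.018 to 0.45), miR-182 (-0.25 to 1.43), miR-99b (-0.0091 to 0.33), miR-152 (-0.12 to 0.015) and miR-135b (-1.68 to 0.23). The residual SD of 0.759 at a mean Ct of 32 to 35 limits what can be seen there.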
